A study of Homo sapiens with 18 samples.

Results

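Chromatin at 9 interferon response genes was examined by Cut&Tag in MOLM-13, an established human line of acute myeloid leukemia that carries a KMT2A rearrangement. Cut&Tag uses an antibody to tether the Tn5 transposase to a histone modification, so that DNA around the modification is cut and tagged for sequencing. The genes were STAT2, IRF1, IRF7, IRF9, ISG15, MX1, OAS1, IFIT1 and IFIT3. In each mark, a gene was represented by the listed interval with the highest mean count over the 4 libraries among those that overlap 2 kb on either side of any of its transcription start sites in GENCODE. With this rule 7 of the 9 genes had an interval in at least 1 mark, out of 20020 protein-coding genes, which gave 19 pairs of gene and mark out of 275391 intervals. IRF7 and IRF9 had no interval in the window and were not analysed here, so no statement is made on whether they carry the marks. H3K4me3, found at active promoters, had an interval at all 7 remaining genes. H3K27ac, found at active promoters and enhancers, had one at 5 (STAT2, IRF1, ISG15, MX1 and OAS1). H3K4me1, which marks enhancers and the flanks of promoters, had one at 6 (all but STAT2). H3K27me3, the repressive mark of Polycomb, had one at ISG15 alone.

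Cells of this single line were cultured with 100 nM PR-957 (ONX-0914), an inhibitor of the immunoproteasome subunit PSMB8, or with DMSO as diluent, for 72 h by the sample labels and for a shorter time by a figure legend of the study. Every mark was profiled in duplicate for each treatment, which gave 16 libraries over the 4 marks (n = 2 per group), while the 2 IgG samples were not analysed here. No label states that libraries of a treatment came from separate cultures, so p-values measure the spread between libraries, which may be technical. Total counts per library were 30070119 to 44591150 for H3K4me3, 9885836 to 14165777 for H3K27ac, 15204186 to 30584219 for H3K4me1 and 10032503 to 12047958 for H3K27me3. These totals are sums over the listed intervals, many of which overlap, so the same reads can count more than once. Total counts in H3K4me3 and H3K4me1 were lower in both PR-957 libraries than in both DMSO libraries. As a check of the cell type, an H3K4me3 interval was found at 5 of 6 myeloid genes (SPI1, CEBPA, CD33, LYZ and CSF1R), with levels of 2.15 to 10.4 CPM (counts scaled to the library's total after TMM) per kb in DMSO. MPO, the remaining myeloid gene, had intervals for H3K27ac and H3K4me1 only. Among genes of other lineages, CD3E, GATA1 and ALB had no interval in any mark, whereas PAX5 and EPCAM had H3K4me3 intervals with levels of 3.31 and 0.661.

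Interferons are cytokines that warn cells of infection. Type I interferons bind a cell surface receptor whose kinases, JAK1 and TYK2, phosphorylate STAT2 in the cytoplasm. STAT2 and IRF9 are subunits of the complex ISGF3, which recognises the interferon-stimulated response element (ISRE) in promoters, whereas interferon gamma acts on gamma-activated sites (GAS). STAT2, IRF1, IRF7 and IRF9 are transcription factors of the response, and ISG15, MX1, OAS1, IFIT1 and IFIT3 are antiviral effectors that it induces. The immunoproteasome, which PR-957 inhibits, is itself induced by interferon gamma.

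Promoters of the 7 genes were searched on both strands for the core of the ISRE, which is a pair of GAAA tetramers separated by 2 bases of any kind, and for the GAS motif TTCNNNGAA. The windows run from 250 bases before to 50 bases after a start site and come from RefSeq (GRCh38.p14). The 7 genes have 10 windows. The ISRE core was found in 3.57% of all 35116 promoter windows and the GAS motif in 7.66%. Of the 7 genes, 4 held the ISRE core (ISG15, IFIT1, IFIT3 and MX1) and 3 held the GAS motif (IRF1, OAS1 and MX1), whereas neither was found in the STAT2 window. A gene was counted if any of its windows held the motif, whereas the shares above are per window, so they are not on the same scale. A match is a run of letters and not a measured binding site. The following stretches, with the matches in capitals, show the promoters that the results below refer to, and positions are counted from the start site.

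Each sequence is read 5′ to 3′ on the strand of its gene, and the stretches of ISG15 (chr1:1013317-1013416, positions -180 to -81), IFIT1 (chr10:89392443-89392542, -180 to -81), IFIT3 at its second start (chr10:89332399-89332498, -130 to -31) and MX1 at its first start (chr21:41420558-41420587, 1 to 30) hold the ISRE core, on the opposite strand in IFIT1 and IFIT3.
ISG15: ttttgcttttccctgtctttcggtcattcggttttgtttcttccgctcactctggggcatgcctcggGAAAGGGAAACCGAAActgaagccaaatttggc
IFIT1: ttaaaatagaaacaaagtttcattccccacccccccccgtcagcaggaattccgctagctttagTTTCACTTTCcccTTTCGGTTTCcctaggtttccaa
IFIT3: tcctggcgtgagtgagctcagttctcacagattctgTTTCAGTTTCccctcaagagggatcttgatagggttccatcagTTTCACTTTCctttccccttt
MX1: cgagcagaaatGAAACCGAAActgaattgt

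The stretches of IRF1 (chr5:132490854-132490953, minus strand) and OAS1 (chr12:112906782-112906881, plus strand), both from -180 to -81, hold the GAS motif.
IRF1: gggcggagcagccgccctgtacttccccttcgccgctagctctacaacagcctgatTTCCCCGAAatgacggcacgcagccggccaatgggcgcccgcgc
OAS1: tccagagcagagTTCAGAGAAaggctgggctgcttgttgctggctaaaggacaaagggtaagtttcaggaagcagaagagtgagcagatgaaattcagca

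ISG15 has a further set of start sites upstream, described below, and the 100 bases before its first position (chr1:1001038-1001137, plus strand, hg38) hold no capitals because neither motif was found in the 250 bases before it.
ISG15 upstream: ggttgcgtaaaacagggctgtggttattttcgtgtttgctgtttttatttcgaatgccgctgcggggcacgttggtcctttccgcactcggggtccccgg

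The level of each mark differed widely among the genes. To compare genes, CPM values were divided by the length of the interval in kb, and each gene was ranked among the protein-coding genes with an interval for the mark. These were 12790 genes for H3K4me3, 12090 for H3K27ac, 8701 for H3K4me1 and 3976 for H3K27me3. IRF1, a factor of the interferon gamma response, had the highest H3K4me3 level of the 7 genes in DMSO, 5.62 ± 0.215 CPM per kb (mean ± SD, n = 2), at the 65.7th percentile. STAT2 followed with 3.80 ± 0.286, at the 37.2nd percentile, and ISG15 with 3.71 ± 0.0168, at the 35.7th, and the libraries of these neighbours overlapped. The remaining antiviral effectors lay low among genes with an interval. MX1, a GTPase that blocks viral nucleocapsids, reached the 9.08th percentile, IFIT1 the 3.96th, OAS1 the 3.21st and IFIT3 the 0.344th. IFIT1 and OAS1 overlapped each other, whereas MX1 lay above both and IFIT3 below both in every DMSO library. The intervals that represent MX1 and IFIT3 lie away from their main starts in every mark, by 4468 and 4134 bp for H3K4me3. Their ranks are therefore those of other starts. Over the main MX1 start, H3K4me3 was 1.88 and 1.27 CPM in DMSO, against 3.09 and 2.59 on the interval ranked here. No H3K4me3 interval covers the main IFIT3 start. Among effector genes with an ISRE core in the promoter, ISG15 thus exceeded IFIT1 and IFIT3 in all 4 libraries.

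H3K27ac gave nearly the same order. IRF1 led with 4.96 ± 0.321 CPM per kb, at the 61.6th percentile. STAT2 (35.0th percentile), MX1 (22.5th), ISG15 (20.7th) and OAS1 (12.9th) followed, and each of these overlapped its neighbour in the DMSO libraries. For H3K4me1, IRF1 stood at the 99.0th percentile, with 5.55 ± 0.653 CPM per kb over an interval of 18257 bp. This interval (chr5:132452961-132471218) lies 19555 bp downstream of the main start site of IRF1, near minor starts that GENCODE lists for transcripts without a defined coding sequence. It had 110 and 92.8 CPM in DMSO, whereas the H3K4me1 interval over the main start had 20.1 and 21.8 over 11328 bp. The rank of IRF1 in this mark is therefore not that of its main promoter, whose percentile is not given here. The other 5 genes lay between the 29.3rd (IFIT1) and the 52.9th percentile (ISG15), and neighbours in this order overlapped. For H3K27me3, ISG15 stood at the 93.3rd percentile with 11.8 ± 0.103 CPM per kb. This interval ends 1499 bp before the main ISG15 start and also represents HES4 and PERM1. The H3K27ac and H3K4me1 intervals that represent ISG15 also lie upstream of its main start and are shared with HES4, as described below. The ranks of ISG15 in these marks are therefore not those of its main promoter.

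**Figure D1:**
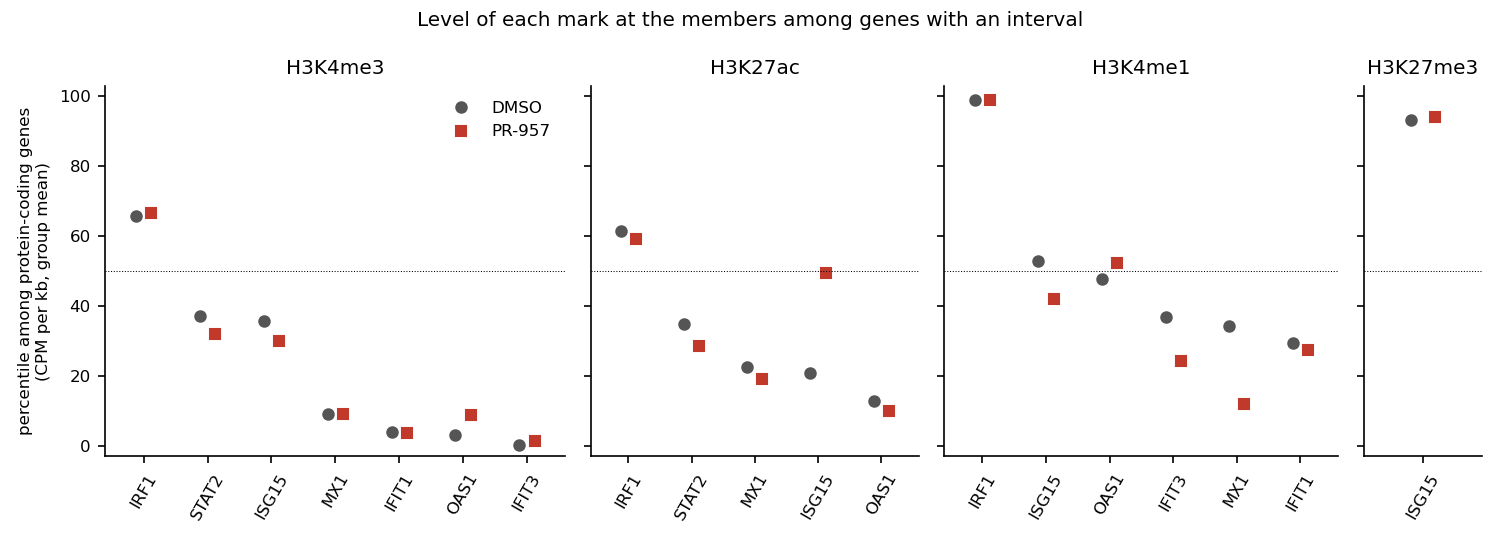
Percentile of each gene among protein-coding genes with an interval for the mark, ranked by the group mean of CPM per kb (n = 2), in DMSO (circles) and PR-957 (squares); the dotted line is the median gene. IRF1 is the highest in H3K4me3, H3K27ac and H3K4me1, MX1, OAS1, IFIT1 and IFIT3 lie under the 10th percentile for H3K4me3, and ISG15 moves from the 20.7th to the 49.5th percentile for H3K27ac. The ISG15 intervals for H3K27ac, H3K4me1 and H3K27me3 lie upstream of its main start. The IRF1 interval for H3K4me1 and the MX1 and IFIT3 intervals in every mark also lie away from the main starts.

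To ask whether PR-957 changed these marks, counts were compared between treatments within each mark by edgeR's quasi-likelihood test, with Benjamini-Hochberg adjustment over every interval tested. An interval was called at an adjusted p under 0.05. Values by library are CPM, and fold changes are log2 of PR-957 over DMSO with their standard error (SE). Of the 19 pairs of gene and mark, 1 was called, namely H3K27ac on the interval that represents ISG15, which rose.

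**Figure D2:**
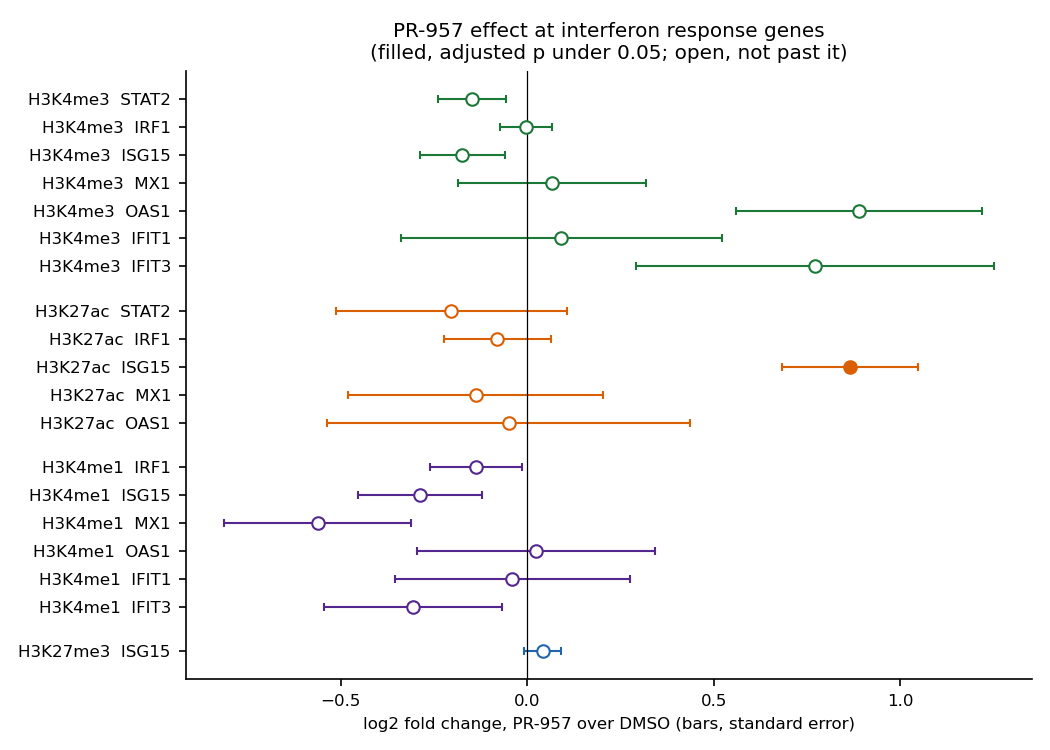
Log2 fold change of PR-957 over DMSO (x axis) for each of the 19 pairs of mark and gene, with bars of 1 SE from edgeR; a filled circle has an adjusted p under 0.05. H3K27ac at ISG15, at 0.87, is the filled circle, and among the open circles OAS1 (0.89) and IFIT3 (0.77) in H3K4me3 lie farthest right and MX1 in H3K4me1 (-0.56) farthest left.

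For H3K4me3, 134 of 59229 intervals were called (0.226% of those tested), and none of the 7 genes was called in edgeR, with 1 at an unadjusted p under 0.05. DESeq2 called none of the 5 to which it gave an adjusted p, which leaves out IFIT1 and IFIT3. The largest difference was at OAS1, which makes the second messenger that activates RNase L. CPM on its interval (chr12:112906659-112908582) were 1.48 and 1.20 in DMSO and 2.20 and 2.77 in PR-957. Both PR-957 libraries thus lay above both DMSO libraries, with 66 and 50 against 67 and 84 counts. The log2 fold change was 0.89 (SE 0.33), with an unadjusted p of 0.00682 and an adjusted p of 0.368 in edgeR. All 3 overlapping intervals at the OAS1 start gave values of 0.80 to 0.89. Libraries of the treatments did not overlap at 36.6% of all H3K4me3 intervals, and at 1 gene higher (OAS1) and 2 genes lower (STAT2 and ISG15) of the 7.

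Of the transcription factors, STAT2 had 16.8 and 18.7 CPM in DMSO and 15.4 and 16.7 in PR-957, and its log2 fold change came to -0.15 (SE 0.091, adjusted p 0.776 in edgeR). Its interval, chr12:56357282-56361959, also represents APOF. IRF1 had 63.7 and 67.3 in DMSO and 64.0 and 66.8 in PR-957 (chr5:132487287-132498945), and its log2 fold change of -0.0025 (SE 0.069) has a 95% interval of -0.14 to 0.13. IRF1 lay well above the effectors in depth, with 2848 and 2800 counts in DMSO and 1949 and 2022 in PR-957. STAT2 had 753 and 780 counts in DMSO and 470 and 505 in PR-957, nearer to the effector ISG15 with 482 and 446 against 305 and 274.

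Among the effectors, ISG15 encodes a ubiquitin-like protein that is conjugated to other proteins. On its main start site (chr1:1012608-1015503), H3K4me3 was 10.8 and 10.7 CPM in DMSO and 10.0 and 9.05 in PR-957, which gave a log2 fold change of -0.17 (SE 0.12, adjusted p 0.806 in edgeR). MX1 had 3.09 and 2.59 against 3.35 and 2.61 at its first start (chr21:41419505-41421771), with a log2 fold change of 0.067 (SE 0.25). IFIT1, which binds viral RNA that lacks the host cap, had 1.03 and 1.01 against 1.44 and 0.726 (chr10:89392286-89393612), with a log2 fold change of 0.091 (SE 0.43). The PR-957 libraries of IFIT1 lay on either side of both DMSO libraries. IFIT3, a partner of IFIT1, had 0.761 and 0.505 against 1.64 and 0.528 at its second start (chr10:89332131-89333929). Its log2 fold change of 0.77 (SE 0.48, adjusted p 0.777 in edgeR) rests on PR-957 replicate 1, and without that library the value is -0.26. The depth at IFIT1 and IFIT3 was 16 to 50 counts per library, at which the 95% interval of the log2 fold change runs from -0.75 to 0.93 for IFIT1 and from -0.17 to 1.71 for IFIT3.

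**Figure D3:**
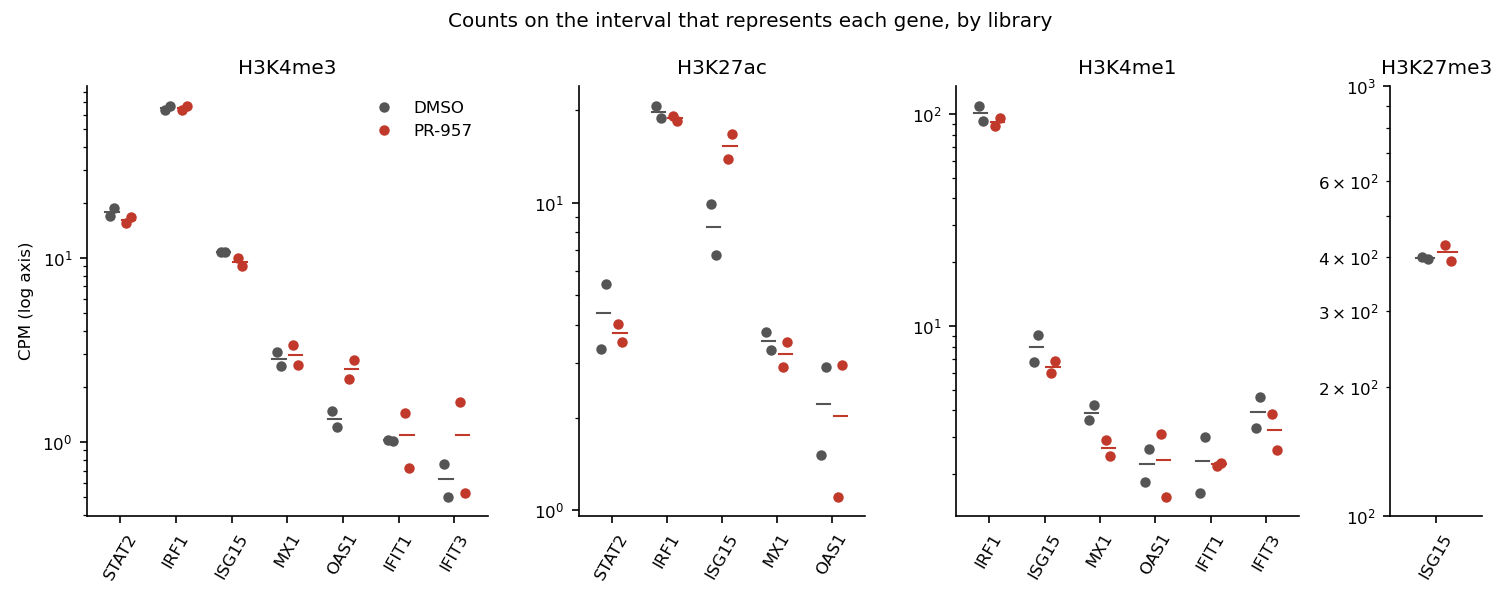
CPM (log axis, a separate scale for each mark) on the interval that represents each gene; each point is a library, short lines are the means of the 2 libraries, grey is DMSO and red is PR-957. For H3K27ac the PR-957 libraries of ISG15 lie above its DMSO libraries, and for H3K4me3 those of OAS1 do; apart from STAT2 and ISG15 in H3K4me3 and MX1 in H3K4me1, which are lower in PR-957, the treatments overlap.

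For H3K27ac, 177 of 74510 intervals were called (0.238% of those tested), of which 48 were higher in PR-957 (0.0644%). Many listed intervals overlap, and with 1 interval per locus 39 of 30621 were called, 6 of them higher. ISG15 was the only one of 5 genes called. On its interval, chr1:999438-1003320, CPM were 9.91 and 6.76 in DMSO and 13.9 and 16.7 in PR-957, from 131, 67, 138 and 238 counts. Both PR-957 libraries lay above both DMSO libraries. The interval rose 1.82-fold, a log2 fold change of 0.87 (SE 0.18) with a 95% interval of 0.51 to 1.22 and an adjusted p of 0.00262 in edgeR. Bulk counts cannot tell more signal per cell from more cells that carry it. The treatments also did not overlap at 36.9% of all H3K27ac intervals. DESeq2 gave the same log2 fold change of 0.87 (SE 0.24) and an unadjusted p of 0.000328, but no adjusted p for this interval. The call was lost in edgeR without DMSO replicate 2 (0.64, adjusted p 0.394) and without PR-957 replicate 2 (0.72, adjusted p 0.524).

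The other 4 genes were not called for H3K27ac, and the treatments overlapped at each. IRF1 had 20.7 and 18.9 CPM in DMSO against 19.1 and 18.4 in PR-957 on its main start (chr5:132487760-132491740), with a log2 fold change of -0.080 (SE 0.14). STAT2 had 3.33 and 5.44 against 4.03 and 3.52 (chr12:56359393-56360840), with a log2 fold change of -0.20 (SE 0.31). MX1 had 3.78 and 3.33 against 2.92 and 3.52 (chr21:41419715-41421284), with -0.14 (SE 0.34). OAS1 had 1.51 and 2.92 against 1.11 and 2.96 (chr12:112906873-112908213), with -0.049 (SE 0.49). At 11 to 42 counts per library, the 95% interval for OAS1 in H3K27ac runs from -1.0 to 0.90, and a change of either direction within it was not detectable at this depth. The median log2 fold change of the 5 genes was -0.080, beside 4.52e-06 over all intervals.

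The H3K27ac interval that represents ISG15 is not at its main promoter. GENCODE places the start of the MANE Select transcript, the one that RefSeq and Ensembl chose jointly, at position 1013497 of chromosome 1, and lists protein-coding transcripts that start 12359 and 12352 bp upstream, at 1001138 and 1001145. The interval covers these upstream starts and the start of HES4, at 1000097, which encodes a transcriptional repressor of the HES family and runs in the opposite direction. The same interval therefore represents HES4, and Cut&Tag has no strand that would separate the genes. There are 4 overlapping H3K27ac intervals in this upstream region, with log2 fold changes of 0.82 to 0.91 and adjusted p of 0.00198 to 0.0124 in edgeR, and since they share reads they are not independent. The 3 intervals over the main start gave -0.22 to -0.095 with adjusted p of 0.906 to 0.972. The most covered of these, chr1:1012902-1015239, had 6.66 and 5.65 CPM in DMSO and 5.43 and 5.21 in PR-957. Within a library, the log2 ratio of the upstream to the main interval was 0.57 and 0.26 in DMSO and 1.35 and 1.69 in PR-957, a difference of 1.10 between the means. With 2 libraries per treatment, the two-sided exact permutation p of this difference is 0.333, the smallest that the design allows. The ratio also uses the same counts as the call above, so it adds no separate support. The promoter stretch of the main start printed above holds 2 overlapping matches to the ISRE core, at -113 and -107, whereas the 250 bases before the upstream start hold neither motif. The G and C content of these 250 bases was 59.6% at the main and 57.6% at the upstream start.

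No interval of another mark was called in the upstream region. The 4 H3K4me3 intervals there had log2 fold changes of -0.070 to -0.039. H3K4me1, for which the interval chr1:996980-1002702 represents both ISG15 and HES4, had 6.77 and 9.11 CPM in DMSO and 6.03 and 6.83 in PR-957. The log2 fold change of -0.29 (SE 0.17, adjusted p 0.386 in edgeR) had the opposite sign to H3K27ac, and the treatments overlapped. The region also lies inside a domain of H3K27me3, chr1:978193-1011998, which covers HES4 and PERM1 and ends 1499 bp before the main ISG15 start. Of the 31806 H3K27me3 intervals tested, 1882 were called (5.92%), and treatments did not overlap at 44.2%. The domain had 401 and 396 CPM in DMSO and 428 and 393 in PR-957, with a log2 fold change of 0.042 (SE 0.050, adjusted p 0.771 in edgeR). This depends on the scaling, since scaling by library size only, which moved the median of all H3K27me3 intervals to 0.18, gave 0.20 with an adjusted p of 4.42e-05, and offsets for GC content gave -0.016. Downstream of ISG15, an H3K27me3 interval that was chosen after its values were seen (chr1:1019016-1028282, 5519 bp from the main start) was higher in PR-957, with a log2 fold change of 0.31 (SE 0.081, adjusted p 0.00434 in edgeR), and it lost its call with GC content offsets (0.15, adjusted p 0.388) and without each library in turn (0.29 to 0.32, adjusted p 0.0563 to 0.159).

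For H3K4me1, 2099 of 108158 intervals were called (1.94% of those tested), of which 758 were lower in PR-957 (0.701%), and none of the 6 genes was called in edgeR or DESeq2, with 1 at an unadjusted p under 0.05 in edgeR. MX1 showed the largest difference. Its interval at the first start (chr21:41419207-41423002), where the ISRE core printed above lies, had 3.59 and 4.22 CPM in DMSO and 2.89 and 2.44 in PR-957. Both PR-957 libraries lay below both DMSO libraries, and the log2 fold change was -0.56 (SE 0.25, unadjusted p 0.0253, adjusted p 0.229 in edgeR). Treatments did not overlap at 46.7% of all H3K4me1 intervals, so such a separation was common in this mark. In the same place H3K4me3 (0.067) and H3K27ac (-0.14) of MX1 differed by less than their SE.

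IFIT3 had 3.29 and 4.60 CPM of H3K4me1 against 3.85 and 2.61 (chr10:89330700-89334389), with a log2 fold change of -0.31 (SE 0.24). IFIT1 had 1.63 and 3.01 against 2.18 and 2.26 (chr10:89391271-89393703), with -0.040 (SE 0.31). OAS1 had 1.83 and 2.63 against 3.08 and 1.57 (chr12:112906694-112908457), with 0.024 (SE 0.32). The treatments overlapped at these 3 genes. The minor IRF1 start had 110 and 92.8 against 87.8 and 96.2, with -0.14 (SE 0.12), and the H3K4me1 interval over the main IRF1 start (chr5:132487511-132498839) had 20.1 and 21.8 against 21.8 and 20.9, with 0.025 (SE 0.12). The log2 fold change was below 0 at 5 of the 6 genes and their median was -0.21, beside -0.0011 over all intervals. This median was -0.11 with GC content offsets and -0.11 with the 5 kb window, 0.024 with the main start sites alone, and -0.46 to -0.059 with single libraries left out (-0.46 without DMSO replicate 1, -0.059 without DMSO replicate 2).

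To place these genes in their pathway, 85 further genes were examined, listed by role as ligands, receptors, kinases and STATs, other IRFs, sensors and adaptors of nucleic acids, other effectors, and negative regulators. The list was drawn up from general knowledge, but with earlier results of these data known, so it is not independent of them. An interval was present at 66 of them for H3K4me3, 58 for H3K27ac, 52 for H3K4me1 and 8 for H3K27me3. The 9 ligand genes were the group with least signal, as H3K4me3 and H3K27ac had no interval at any of them, H3K4me1 had 1 (IFNA2) and H3K27me3 had 2 (IFNL2 and IFNL3). In contrast, all 6 receptor genes, all 5 kinase and STAT genes and all 4 other IRF genes had intervals for both H3K4me3 and H3K27ac.

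None of the 66 pathway genes was called for H3K4me3 in edgeR (3 had an unadjusted p under 0.05), none of 58 for H3K27ac (4) and none of the 7 tested for H3K27me3 (0). DESeq2 called none in these marks among the genes to which it gave an adjusted p. For H3K27ac it gave none to any of the 5 members above. How many pathway genes received one is not given here, so the lack of calls says little. Receptor genes stayed within -0.13 to 0.040 on the log2 scale for H3K4me3 and within -0.10 to 0.23 for H3K27ac, and the kinase and STAT genes within -0.11 to 0.073 and -0.16 to 0.18. The other effectors spread further, from -0.34 to 1.18 for H3K4me3 and from -0.42 to 1.20 for H3K27ac. The median over the list was -0.022 for H3K4me3 and -0.00023 for H3K27ac, beside -0.0010 and 4.52e-06 over all intervals.

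For H3K4me1, 2 of the 52 pathway genes fell and none rose, beside the 0.701% of all intervals that fell. MYD88, an adaptor of Toll-like receptors, had 5.89 and 5.98 CPM in DMSO and 2.57 and 4.04 in PR-957 on chr3:38136886-38141574. The log2 fold change was -0.81 (SE 0.21, adjusted p 0.0154 in edgeR). USP18, which removes ISG15 from its targets and restrains the type I receptor, had 7.11 and 8.70 against 5.58 and 4.78 on chr22:18147152-18150470. Its log2 fold change was -0.61 (SE 0.18, adjusted p 0.0361 in edgeR). Both PR-957 libraries lay below both DMSO libraries at each gene. The calls are sensitive, since DESeq2 gave adjusted p of 0.485 for MYD88 and 0.565 for USP18, GC content offsets gave 0.0651 and 0.0801, and leaving out single libraries kept MYD88 only without PR-957 replicate 2 (adjusted p 0.00530) and USP18 in no case (0.0832 to 0.338).

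Over the 52 genes the H3K4me1 log2 fold change was below 0 at 40 and above 0 at 12, with a median of -0.15, beside -0.0011 over all intervals. All intervals include those away from start sites, so these medians come from unlike sets. The 52 genes were represented by 51 distinct intervals, and the interval covered the main start at 33 of the genes. With the MANE Select start alone, 46 genes had an interval, 35 were below 0 and the median was -0.13. With GC content offsets the median was -0.10, beside -0.011, and 38 genes were below 0. Under cyclic loess it was -0.095, beside -0.0053, and 34 genes were below 0. Under library size scaling it was -0.10, beside 0.047, also with 34 genes below 0. By role, the medians were -0.31 for the 4 negative regulators, -0.16 for the 23 other effectors, -0.14 for the 3 other IRFs, -0.12 for the 5 receptors, -0.061 for the 5 kinases and STATs, and -0.022 for the 11 sensors and adaptors, and the 1 ligand gene, IFNA2, stood at 0.22. The PR-957 libraries of this mark were also the shallower ones, and the part of depth in these values was not tested.

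**Figure D4:**
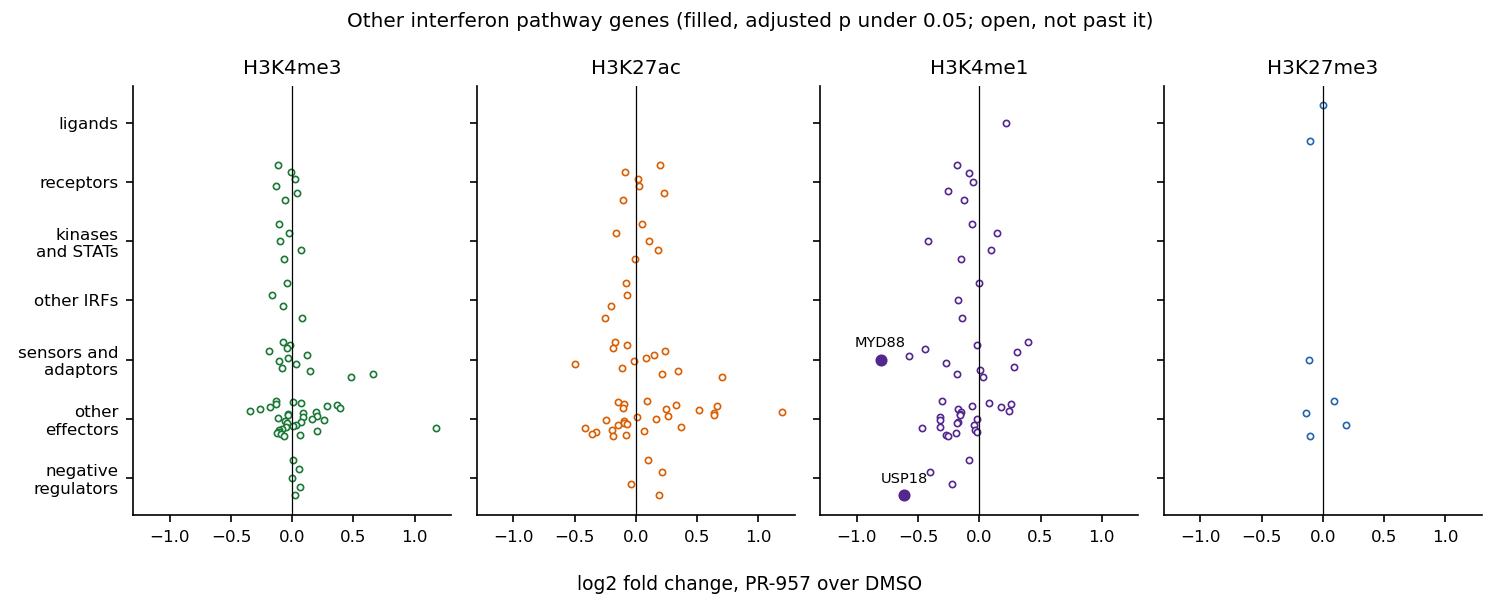
Log2 fold change of PR-957 over DMSO (x axis) for the other interferon pathway genes, grouped by role, with a panel for each mark and a point for each gene; filled points have an adjusted p under 0.05 in edgeR. MYD88 (-0.81) and USP18 (-0.61) in H3K4me1 are the filled points, and most H3K4me1 points lie left of 0.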

How the data were processed

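Cut&Tag libraries of MOLM-13 cells (PR-957 or DMSO, 4 marks, 2 libraries each) were analysed. The deposited values are raw counts: for every library of a mark, the authors gave a whole number of reads or fragments on each interval of a common list. Per the labels, the processing named Trimmomatic 0.39, Bowtie2 2.2.5, Picard 2.27.1, SAMtools 1.7, SEACR 1.3, deepTools 3.5.1 and hg38. The counter and the treatment of duplicates are not given in the sources used here. Interval coordinates are those of the files.

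Low intervals were removed by filterByExpr (minimum count 10). Counts were scaled by TMM and tested per mark with edgeR 4.0.16 in R 4.3.3 at an adjusted p of 0.05, without the replicate number as a block. Start sites came from GENCODE release 44, read in Python 3.11.15. The test was also run on simulated counts, drawn independently for each interval, whereas the listed intervals share reads. The outcome is not given here, and no support is drawn from it.

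The 9 genes, the pathway list and the marker lists were chosen with earlier results of these data known. Named were the 9 genes in every mark, the pathway genes called (at most 10 per mark by p) and genes that share an interval with a member. The marker genes and the ligand genes with an interval (IFNA2, IFNL2 and IFNL3) are named besides, the latter after their values were seen. Some genes of the lists are not reported here by name.

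Alternatives for the scaling were median-of-ratios factors, no factors beyond library size, cyclic loess offsets and GC content offsets (loess span 0.3). Others were DESeq2 1.42.0, omitting the count filter, requiring a mean of 50 counts, the replicate block, windows of 1 and 5 kb, every interval in the window, 1 interval per locus, PR-957 libraries for the levels and leaving out each library. Using the MANE Select start alone was added after seeing the data.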

Additional observations from a re-analysis of the deposited data

How the results depend on the processing

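The H3K27ac call at ISG15 kept its direction and its side of the threshold under every scaling (0.79 to 0.89), filter, window and block run in edgeR. The count of members called for H3K27ac was 0 to 1 when single libraries were left out and 0 with the MANE Select start alone, where ISG15 gave -0.22. For H3K27me3, ISG15, and thus 1 member, was called both without TMM (library size only, 0.20) and under cyclic loess (0.22), and it turned to -0.016 with GC content offsets and -0.021 with 1 interval per locus, and ranged from -0.035 to 0.094 with libraries left out. The count of pathway genes called for H3K4me1 was 1 under library size scaling, 1 under cyclic loess, 0 with GC content offsets, 0 in DESeq2, and 0 to 1 with single libraries left out. It was 3 with the 5 kb window, 3 over every interval in the window and 3 with the MANE Select start.

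Several values changed sign without a call, most of them near 0, but also that of IFIT3 in H3K4me3, which was 0.77 in the main fit. For H3K4me3, IRF1 turned to 0.0083 under library size scaling, 0.022 under cyclic loess, 0.0044 with GC content offsets and 0.0014 with a mean count of at least 50. MX1 turned to -0.0063 and IFIT1 to -0.10 under cyclic loess, and ISG15 to 0.078 with the 5 kb window, which takes another interval. With single libraries left out, H3K4me3 values ranged from -0.041 to 0.037 for IRF1, -0.12 to 0.23 for MX1, -0.49 to 0.50 for IFIT1 and -0.26 to 1.36 for IFIT3. Those of H3K27ac ranged from -0.53 to 0.17 for STAT2 and -0.96 to 0.46 for OAS1. Those of H3K4me1 ranged from -0.43 to 0.45 for IFIT1 and -0.50 to 0.48 for OAS1. For H3K4me1, IFIT1 also turned to 0.0020 under library size scaling, IRF1 to 0.016 under cyclic loess, 0.29 over every interval in the window and 0.025 with the MANE Select start, and OAS1 to -0.11 under cyclic loess, -0.00082 with GC content offsets and -0.019 with 1 interval per locus. The cause was not tested. Depth limits the effector genes most, as given beside their values.

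The replicate number as a block changed no call of a member or pathway gene, and the H3K27ac value of ISG15 was 0.88 with it. Deviations of same-numbered libraries correlated at 0.17 for H3K4me3 and at -0.0089, 0.0068 and -0.0069 for H3K27ac, H3K4me1 and H3K27me3. With the block, 161, 195, 1904 and 1324 intervals were called in H3K4me3, H3K27ac, H3K4me1 and H3K27me3. Over all intervals DESeq2 called 34, 85, 26 and 1278.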
